A study of Mus musculus with 16 samples.

Results

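Transcripts of the tribbles pseudokinases, the ubiquitin ligase COP1 and the C/EBP transcription factors were followed in 16 RNA-seq libraries. The set holds 10 of the 23420 gene symbols in the count tables, and each of them was found by its symbol. It comprises Trib1, Trib2 and Trib3, the COP1 gene under its older symbol Rfwd2, the COP1 partners Det1 and Dda1, Cebpa, Cebpb and Cebpd, and Map2k1, which codes for the kinase MEK1. Tribbles proteins resemble protein kinases but signal mainly as adaptors. Their C-terminal tail binds COP1 and their pseudokinase domain holds a substrate, the best known being C/EBP alpha, so that COP1 can ubiquitinate it and send it to the proteasome. The same tail can bind MEK1. C/EBP factors drive adipocyte differentiation and many hepatocyte genes, and human variants near TRIB1 are associated with plasma lipids.

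The libraries came from 8 male C57BL/6 mice, and each mouse gave 1 library of adipocytes and 1 of liver. The 4 knockout-labelled mice carry an adipocyte-specific deletion of Trib1 according to the labels, and the other 4 mice are labelled wild-type. The groups were therefore knockout-labelled adipocytes, wild-type adipocytes, knockout-labelled liver and wild-type liver, with 4 libraries in each. Mice are named KO or WT by their genotype label, with their number. Mice KO-1137, KO-1139, WT-1135, WT-1136 and WT-1138 were taken at 76 postnatal days, and KO-1151, KO-1152 and WT-1153 at 70 days. Where 4 values of a group are given, they follow the order of these numbers. Adipocytes were freed from subcutaneous fat with collagenase, whereas whole liver was homogenised. The labels name neither the Cre driver nor the deleted part of the gene, and they do not say which allele the wild-type mice carried.

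The libraries held 28560887 to 53716669 counts each and 15279 to 16747 genes with a count. The 14 adipocyte marker genes summed to 50840 to 56694 CPM (counts scaled to the same library total) in knockout-labelled adipocytes and 41660 to 58521 CPM in wild-type adipocytes, against 202 to 249.4 CPM over all liver libraries. The 14 hepatocyte markers summed to 133046 to 168818 CPM in liver and to 27.3 to 133 CPM in adipocytes, so both tissues carried the markers of their labels. CPM values are scaled by TMM, a factor that corrects library totals for differences in composition, within each tissue unless stated otherwise. A gene is said to have changed when edgeR's quasi-likelihood test gave a Benjamini-Hochberg adjusted p under 0.05 over all genes tested. In these bulk samples, fewer cells of a type and less RNA per cell cannot be told apart.

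Trib1 itself, the gene targeted in the knockout, was not lower in the knockout-labelled adipocytes. It had 1071, 1273, 1408 and 1345 CPM in knockout-labelled adipocytes, against 752, 925, 1226 and 1293 CPM in wild-type adipocytes. The ranges overlapped, and the lowest libraries were wild-type. The log2 difference was 0.28 ± 0.18 (SE, 95% interval -0.12 to 0.68, edgeR adjusted p = 0.241). Trib1 lies on chromosome 15 at 59648350 to 59657099 on the plus strand (GRCm38, GENCODE M21). A whole-gene count cannot show whether an exon is missing from these transcripts, so this count does not check the genotype labels. The groups are called knockout-labelled for that reason throughout.

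In liver Trib1 had 78.8, 41.7, 66.4 and 72.9 CPM in knockout-labelled mice, against 58.8, 56.6, 51.4 and 72.3 CPM in wild-type mice. The wild-type liver values lay inside the range of the knockout-labelled ones.

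The members whose transcripts rose in knockout-labelled adipocytes were Rfwd2 and Trib3. The promoter stretches of these members are shown because both rose together. Each line gives the 250 bases just before the transcription start from RefSeq (GRCm38.p6), 5′ to 3′ on the gene's own strand. Trib3 is at chr2:152344061-152344310 on the minus strand and Rfwd2, named Cop1 in RefSeq, at chr1:159231950-159232199 on the plus strand. Capitals mark a match to a searched motif.
Trib3: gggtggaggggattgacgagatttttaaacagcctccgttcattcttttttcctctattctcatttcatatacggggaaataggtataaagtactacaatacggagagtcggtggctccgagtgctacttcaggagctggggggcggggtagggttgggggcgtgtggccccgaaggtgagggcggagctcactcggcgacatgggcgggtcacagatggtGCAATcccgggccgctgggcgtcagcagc
Rfwd2: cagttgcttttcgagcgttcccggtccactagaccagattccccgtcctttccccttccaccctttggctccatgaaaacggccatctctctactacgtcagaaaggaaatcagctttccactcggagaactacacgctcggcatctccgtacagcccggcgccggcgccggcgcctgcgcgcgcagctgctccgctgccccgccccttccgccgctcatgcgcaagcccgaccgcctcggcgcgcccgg

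Both strands were searched for 5 motifs: the C/EBP core TTGCNNAA, the C/EBP-ATF composite core TGATGNAA that binds factors such as ATF4, the cyclic AMP response element TGACGTCA, the shorter C/EBP sequence GCAAT and the CCAAT box. The Trib3 stretch held GCAAT, with 24 bases between it and the start, and the Rfwd2 stretch held none of the 5 motifs. Over 32851 mouse promoters of the same length, 23.1% held GCAAT, 33.8% CCAAT, 9.56% the C/EBP core, 3.45% the composite core and 1.55% the cyclic AMP response element. GCAAT and the C/EBP core can overlap at shared bases. A promoter was matched for 8 of the 10 members, all but Trib1 and Cebpd. Among the others, the Cebpb stretch held GCAAT with 52 bases before the start, Dda1 held CCAAT at 3 places and Map2k1 at 2, and those of Trib2, Det1 and Cebpa held none of the motifs.

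In the adipocyte comparison of the mice labelled knockout and wild-type, 3 of the 10 members changed: Rfwd2 and Trib3 rose and Trib2 fell. Of all 13795 genes tested in adipocytes, 35.2% changed, 18.0% upwards and 17.1% downwards, so the members' share lay near the background. Rfwd2 codes for COP1, the ligase that tribbles proteins recruit, and lies on chromosome 1 at 159232320 to 159347640 on the plus strand. It had 81.0, 85.7, 83.8 and 94.4 CPM in knockout-labelled adipocytes, against 52.6, 60.0, 57.1 and 65.4 CPM in wild-type adipocytes. All knockout-labelled libraries were above all wild-type libraries. The log2 difference was 0.55 ± 0.085 (SE, 95% interval 0.36 to 0.74, edgeR adjusted p = 0.00166), a 1.47-fold higher level. With scaling by library totals it was smaller, at 0.36 (edgeR adjusted p = 0.00625). Non-overlapping groups were seen for 33.9% of all genes tested.

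Trib3 is a stress-induced tribbles gene, a target of ATF4 and CHOP whose product can bind AKT and COP1. It lies on chromosome 2 at 152337422 to 152344032 on the minus strand. Trib3 had 8.0, 6.39, 5.45 and 5.91 CPM in knockout-labelled adipocytes, against 4.26, 4.19, 4.71 and 3.22 CPM in wild-type adipocytes. The groups did not overlap, at a level that is low in both. The log2 difference was 0.65 ± 0.17 (SE, 95% interval 0.26 to 1.05, edgeR adjusted p = 0.0175). The call was lost with scaling by library totals (0.46, adjusted p = 0.0894), in the fit over all 16 libraries (0.68, adjusted p = 0.0705) and with the mice of 76 days alone (0.72, adjusted p = 0.0625).

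Trib2, a paralog that also recruits COP1 to C/EBP alpha, fell. It lies on chromosome 12 at 15791727 to 15816922 on the minus strand. It had 4.70, 3.03, 2.29 and 3.0 CPM in knockout-labelled adipocytes, against 18.3, 9.13, 8.38 and 5.26 CPM in wild-type adipocytes. The groups did not overlap, and mouse WT-1135 stood highest. The log2 difference was -1.66 ± 0.37 (SE, 95% interval -2.49 to -0.83, edgeR adjusted p = 0.00806), and it was -1.23 without mouse WT-1135, still past the threshold.

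Many markers of other cells of adipose tissue fell in the same libraries, as Trib2 did and unlike Rfwd2 and Trib3. All 10 endothelial markers fell in knockout-labelled adipocytes, and their summed level was 542, 477, 237 and 414 CPM in knockout-labelled adipocytes, against 2373, 1167, 1576 and 838 CPM in wild-type adipocytes. Of the fibroblast and progenitor markers 8 of 10 fell, with sums of 370 to 768 CPM in knockout-labelled and 837 to 1133 CPM in wild-type adipocytes, and all 8 mural markers fell, with 104 to 171 CPM in knockout-labelled and 266 to 400 CPM in wild-type adipocytes. Of the lymphocyte markers 3 of 9 fell (33.3%), with sums of 14.3 to 38.7 CPM in knockout-labelled and 26.98 to 56.9 CPM in wild-type adipocytes. None of the 8 macrophage markers tested changed by edgeR, with 0 at an unadjusted p under 0.05 and 0 by DESeq2, and their sums were 74.1 to 383 CPM in knockout-labelled and 162 to 348 CPM in wild-type adipocytes. Clec4f, a Kupffer cell marker, was the one marker of these lists at 0 in all adipocyte libraries. Of the 14 adipocyte markers 3 rose (21.4%) and 1 fell (7.14%). Among all genes tested in adipocytes 18.0% rose and 17.1% fell, so the rises among adipocyte markers lay near the background.

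Trib2 was highest in the library with the most endothelial marker RNA, from mouse WT-1135, and lowest in the one with the least, from mouse KO-1151. Per 1000 CPM of endothelial markers, Trib2 stood at 8.67, 6.35, 9.68 and 7.24 CPM in knockout-labelled adipocytes, against 7.73, 7.82, 5.32 and 6.28 CPM in wild-type adipocytes. These ratios, computed after the values were seen, overlapped between the groups, with means of 7.99 ± 1.48 in knockout-labelled and 6.79 ± 1.21 in wild-type adipocytes (SD, n = 4 each). A gene that fell about as much as these markers would give such ratios whatever cells it came from. The fibroblast and mural markers, which also fell, were not used as a divisor. Rfwd2 and Trib3 were higher in the group with less marker RNA. The part of these cells in the differences of Trib2, Rfwd2 and Trib3 was not tested.

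**Figure D1:**
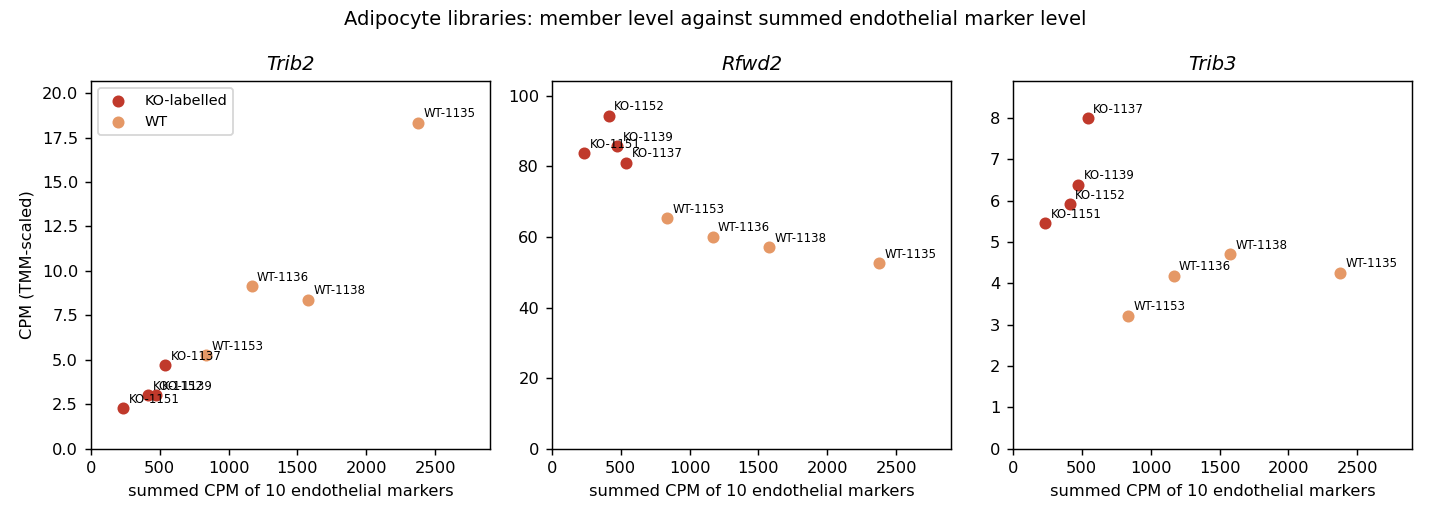
CPM of Trib2, Rfwd2 and Trib3 (y axes, each from 0) against the summed CPM of 10 endothelial markers (x axis) in the 8 adipocyte libraries, 1 point per library, red for knockout-labelled and orange for wild-type mice. Trib2 and the markers were both highest in mouse WT-1135, at 18.3 CPM and 2373 CPM, whereas the 4 knockout-labelled libraries sit above the wild-type ones for Rfwd2 and Trib3.

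The other members gave no call in adipocytes. Det1 and Dda1 code for proteins that join COP1 to the DDB1 and CUL4 ligase core. Dda1 had 57.7, 57.1, 57.6 and 52.7 CPM in knockout-labelled adipocytes, against 48.7, 55.0, 49.7 and 45.5 CPM in wild-type adipocytes. The ranges overlapped through 1 library of each group, and the log2 difference was 0.18 ± 0.076 (SE, edgeR adjusted p = 0.0941). Without mouse WT-1136 it was 0.23 and passed (adjusted p = 0.0344). Det1 averaged 7.49 ± 0.78 CPM in knockout-labelled adipocytes and 7.11 ± 0.71 CPM in wild-type adipocytes (SD, n = 4 each), with overlapping ranges.

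Exons of Dda1 overlap those of Ano8, and exons of Det1 overlap those of a long noncoding RNA, 1700011D18Rik. The strand setting of the counts is not given in the sources used here, so reads of these overlapping genes cannot be told apart. The same holds for Cebpa with its antisense RNA Gm45091 and for Cebpd with Spidr.

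C/EBP alpha, the substrate most closely tied to TRIB1 and COP1, is regulated by them as a protein, and only its transcript was measured here. Cebpa had 741, 817, 848 and 705 CPM in knockout-labelled adipocytes, against 698, 930, 745 and 713 CPM in wild-type adipocytes. The ranges overlapped, and the log2 difference was 0.011 ± 0.12 (SE, 95% interval -0.25 to 0.28, edgeR adjusted p = 0.951). Cebpb, which acts early in adipogenesis and in the acute phase response, had 134, 110, 152 and 115 CPM in knockout-labelled adipocytes, against 109, 135, 92.3 and 104 CPM in wild-type adipocytes. The difference was 0.22 ± 0.14 on the log2 scale (SE, edgeR adjusted p = 0.247), with overlapping groups.

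Cebpd, an early inducer of adipogenesis alongside Cebpb, had 199, 147, 168 and 174 CPM in knockout-labelled adipocytes, against 162, 201, 227 and 206 CPM in wild-type adipocytes. The ranges overlapped, and the log2 difference was -0.21 ± 0.12 (SE, edgeR adjusted p = 0.207). With library totals as the scale Cebpd passed the threshold as lower (-0.39, adjusted p = 0.0305). That scale moves the median log2 difference of all adipocyte genes by -0.19. Map2k1 had 50.8 to 59.2 CPM in knockout-labelled and 49.7 to 58.6 CPM in wild-type adipocytes, and its 95% interval on the log2 scale ran from -0.15 to 0.20.

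**Figure D2:**
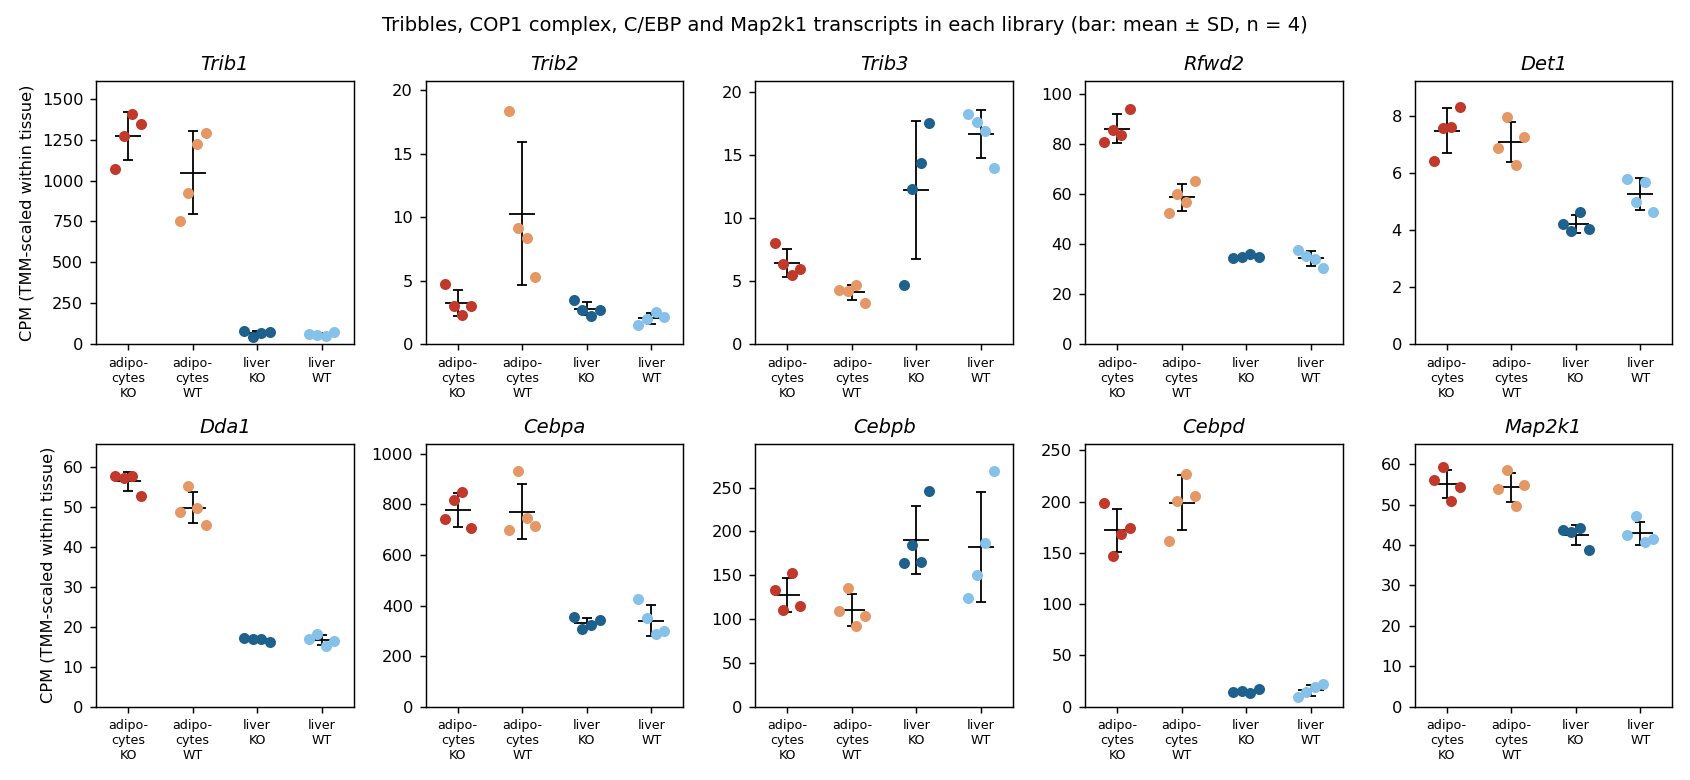
TMM-scaled CPM of each member (y axes, linear and each from 0) in the 16 libraries, 1 point per library, by tissue and genotype label, where KO means knockout-labelled and WT wild-type, with bars for the mean ± SD (n = 4). In adipocytes Rfwd2 and Trib3 lie higher and Trib2 lower in the knockout-labelled libraries with no overlap, while Trib1 overlaps between the genotypes at 752 to 1408 CPM.

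In liver, where the labels imply an intact Trib1 in both genotypes, none of the 10 members changed between knockout-labelled and wild-type mice by edgeR, with 1 at an unadjusted p under 0.05 and 0 by DESeq2. Of all 13288 genes tested in liver, 0.0226% changed, which is 3 genes, all higher (0.0226%) and 0.0% lower, and 8.62% had an unadjusted p under 0.05. Trib1 differed by 0.12 ± 0.18 on the log2 scale (SE, edgeR adjusted p = 0.875). The member with an unadjusted p under 0.05 was Det1, which had 4.22, 3.96, 4.64 and 4.05 CPM in knockout-labelled liver, against 5.81, 4.98, 5.70 and 4.65 CPM in wild-type liver. Its groups did not overlap, which was so for 4.66% of the genes tested, and the log2 difference was -0.32 ± 0.13 (SE, edgeR adjusted p = 0.548).

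Trib3 had 4.70, 12.3, 14.4 and 17.6 CPM in knockout-labelled liver, against 18.2, 17.6, 16.9 and 13.97 CPM in wild-type liver. The groups overlapped, and mouse KO-1137 stood lowest. Trib2 had 2.22 to 3.47 CPM in knockout-labelled liver and 1.47 to 2.54 CPM in wild-type liver, with a log2 difference of 0.44 ± 0.21 (SE, edgeR adjusted p = 0.608). Rfwd2 was nearly level, at 34.5 to 36.0 CPM in knockout-labelled liver and 30.3 to 37.6 CPM in wild-type liver. Its 95% interval on the log2 scale ran from -0.15 to 0.21, which leaves out the difference seen in adipocytes.

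Cebpb varied within both genotypes in liver. It had 164, 184, 165 and 246 CPM in knockout-labelled livers, against 124, 151, 186 and 269 CPM in wild-type livers. The highest library of each genotype came from a mouse taken at 70 days. Cebpa lay at 309 to 355 CPM in knockout-labelled liver and 286 to 424 CPM in wild-type liver, and Cebpd at 13.3 to 16.9 CPM in knockout-labelled and 9.83 to 21.97 CPM in wild-type liver. Dda1 lay at 16.2 to 17.1 CPM in knockout-labelled and 15.2 to 18.2 CPM in wild-type liver, and Map2k1 at 38.9 to 44.1 CPM in knockout-labelled and 40.7 to 47.1 CPM in wild-type liver, all with overlapping groups.

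**Figure D3:**
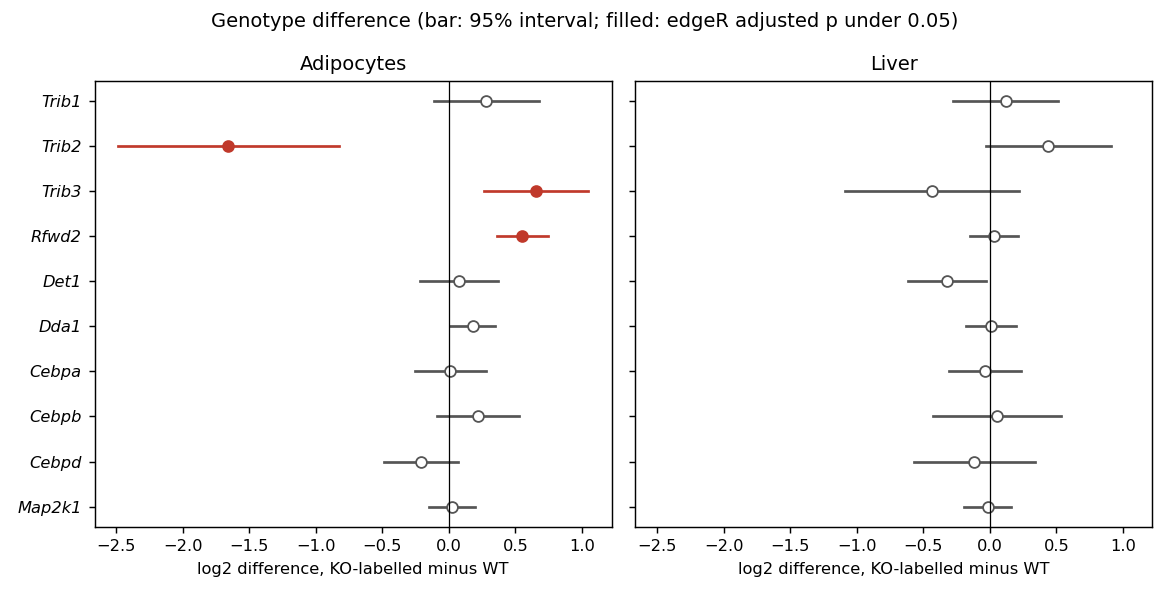
Log2 difference of each member, knockout-labelled minus wild-type (x axis), in adipocytes and liver, with bars for the 95% interval and filled points for an edgeR adjusted p under 0.05. Trib2 at -1.66, Trib3 at 0.65 and Rfwd2 at 0.55 are the filled points in adipocytes, and liver has none.

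Whether the genotype difference itself differed between the tissues was tested as an interaction over the 16 libraries. It did for 2 of the 10 members, Trib2 with a lower and Rfwd2 with a higher value in adipocytes. Of the 14898 genes tested 19.1% did, 10.4% with a higher and 8.73% with a lower value. The adipocyte difference minus the liver difference was -2.07 ± 0.45 for Trib2 (SE, edgeR adjusted p = 0.00517) and 0.55 ± 0.12 for Rfwd2 (adjusted p = 0.00501) on the log2 scale. For Trib3 it was 1.11 ± 0.39 (adjusted p = 0.0533). The Rfwd2 call was lost with scaling by library totals (0.31, adjusted p = 0.0576). Trib3 passed under 5 alternatives: RLE scaling (1.13), DESeq2 (1.13), age by tissue as a covariate (1.39), and without mouse KO-1137 (0.72) or mouse KO-1152 (1.38).

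The age at which the mice were taken was not balanced over the genotype labels. Among the mice of 76 days, Rfwd2 averaged 83.4 CPM in 2 knockout-labelled and 56.6 CPM in 3 wild-type adipocyte libraries, and among those of 70 days 89.1 CPM in 2 knockout-labelled libraries against 65.4 CPM in 1 wild-type library. For Trib3 the values were 7.19 CPM in knockout-labelled and 4.38 CPM in wild-type adipocytes at 76 days, and 5.68 CPM in knockout-labelled against 3.22 CPM in wild-type adipocytes at 70 days. Trib2 had 3.86 CPM in knockout-labelled and 12.0 CPM in wild-type adipocytes at 76 days, and 2.65 CPM in knockout-labelled against 5.26 CPM in wild-type adipocytes at 70 days. All 3 kept their direction within each age, and with 1 wild-type library at 70 days that age gives no test.

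The tissues differed more than the genotype labels. In wild-type mice, 7 of the 10 members differed between adipocytes and liver, 5 higher and 2 lower in adipocytes. Of the 14366 genes tested 77.6% differed, 40.5% higher and 37.2% lower in adipocytes. On a TMM scale shared by all 16 libraries, Trib1 had 616 to 1063 CPM in wild-type adipocytes and 61.2 to 86.6 CPM in wild-type liver, a log2 difference of 3.59 ± 0.21 (SE, edgeR adjusted p = 5.1e-08) or 12.0-fold. Cebpd was 8.43-fold higher in adipocytes (3.08 ± 0.23 on the log2 scale), Trib2 3.48-fold (1.80 ± 0.35), Dda1 2.05-fold (1.03 ± 0.096) and Cebpa 1.56-fold (0.64 ± 0.17, edgeR adjusted p = 0.00456). Trib3 and Cebpb were lower in adipocytes than in liver, by log2 differences of -2.57 ± 0.15 and -1.27 ± 0.22 (SE).

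Rfwd2, Map2k1 and Det1 gave no tissue call in wild-type mice, with adjusted p of 0.0509, 0.053 and 0.499 in edgeR. The scale matters for them, because library totals move the median tissue difference of all genes by 0.65. On that scale Rfwd2 (0.88), Det1 (0.54) and Map2k1 (0.45) all came out higher in adipocytes and passed the threshold, so that 8 members were higher. Rfwd2 also passed without mouse WT-1135 (0.34, adjusted p = 0.0164), with no filter (0.26, adjusted p = 0.046) and with halved counts (0.24, adjusted p = 0.0452). Map2k1 instead passed as lower in adipocytes with RLE scaling (-0.23, edgeR adjusted p = 0.0388) and by DESeq2 (-0.23, adjusted p = 0.0284). Its direction between the tissues thus depended on the scale. In knockout-labelled mice Rfwd2 was higher in adipocytes than in liver by 0.78 ± 0.069 on the log2 scale (edgeR adjusted p = 1.5e-06). Trib2 there was -0.28 ± 0.24 (adjusted p = 0.307), against 1.80 in wild-type mice.

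Levels of different genes were compared per kb of exon, on the 16-library scale. The length was the union of all annotated exons of a gene, not that of the transcript made in these tissues. The order of the genes depends on that length, which overlap between libraries does not address. In knockout-labelled adipocytes the order was Cebpa at 248 ± 21.3 CPM per kb, Trib1 at 171 ± 19.4, Cebpb at 71.5 ± 11.6, Cebpd at 38.6 ± 5.21, Dda1 at 24.5 ± 1.20, Map2k1 at 19.0 ± 1.05, Rfwd2 at 14.2 ± 0.86, Trib3 at 2.67 ± 0.48, Det1 at 2.41 ± 0.24 and Trib2 at 0.63 ± 0.20 (SD, n = 4). Among neighbours in that order, only the libraries of Trib3 and Det1 overlapped. In wild-type adipocytes Cebpa stood at 243 ± 38.0, Trib1 at 139 ± 33.2, Cebpb at 60.7 ± 10.9 and Cebpd at 44.0 ± 6.09 CPM per kb, and Det1 at 2.26 ± 0.25, Trib2 at 1.96 ± 1.06 and Trib3 at 1.67 ± 0.26 came last with overlapping libraries. Dda1 and Map2k1 overlapped there too.

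In liver Cebpa and Cebpb stood at the top with overlapping libraries. Cebpa had 151 ± 8.67 CPM per kb in knockout-labelled and 155 ± 29.2 in wild-type liver, and Cebpb 151 ± 31.8 in knockout-labelled and 146 ± 49.8 in wild-type liver (SD, n = 4 each). Map2k1 followed at 20.9 ± 1.13 in knockout-labelled and 21.2 ± 1.48 CPM per kb in wild-type liver. Trib1, Dda1, Rfwd2 and Trib3 lay close together, between 7.26 and 12.4 CPM per kb in knockout-labelled and 8.05 and 11.5 CPM per kb in wild-type liver, and Trib1 overlapped with Dda1 in both. Det1 and Trib2 were lowest in both groups.

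Read as shares of each family per kb, Trib1 made up 98.1% of tribbles RNA in knockout-labelled and 97.2% in wild-type adipocytes, against 61.0% in knockout-labelled and 52.2% in wild-type liver. Trib3 held most of the rest in liver, with 35.1% in knockout-labelled and 45.2% in wild-type mice. Over single liver libraries Trib1 ran from 49.9% to 80.15% in knockout-labelled and from 47.9% to 61.0% in wild-type mice. Trib3 ran from 14.8% to 45.5% in knockout-labelled and from 36.4% to 48.7% in wild-type liver, so the genotypes overlapped for both genes. Cebpa held 69.3% of the RNA of the 3 C/EBP members in knockout-labelled and 69.8% in wild-type adipocytes, against 49.5% in knockout-labelled and 51.4% in wild-type liver. Cebpd held 10.8% in knockout-labelled and 12.8% in wild-type adipocytes, and 1.56% in knockout-labelled and 1.68% in wild-type liver.

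**Figure D4:**
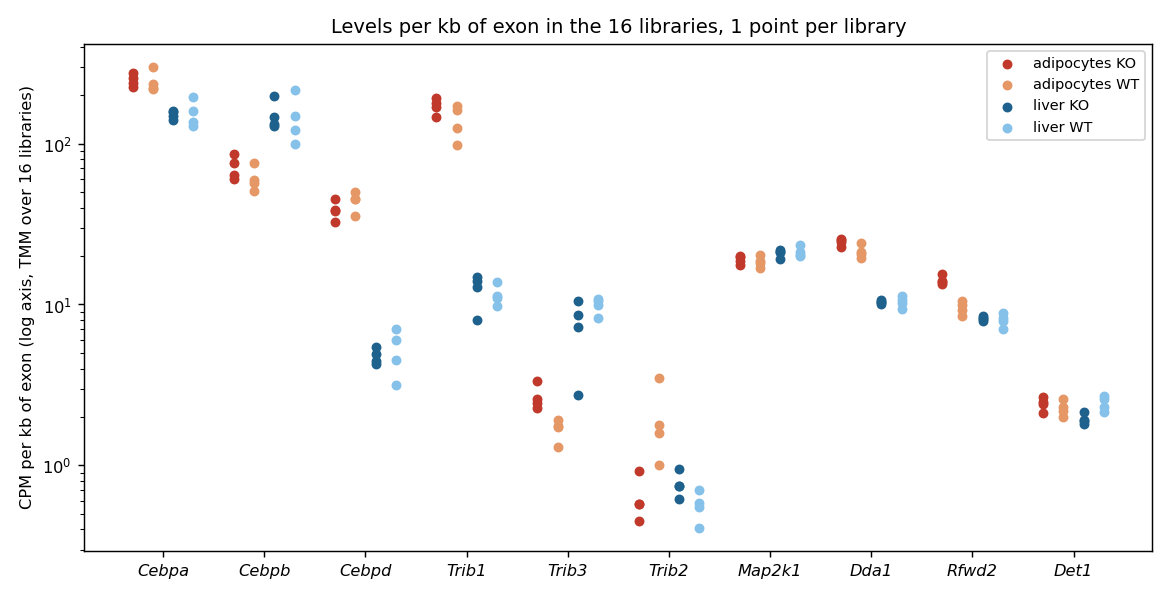
CPM per kb of exon of each member (y axis, log scale) in the 16 libraries, 1 point per library, with knockout-labelled (KO) left of wild-type (WT) within adipocytes and liver. Trib1 and Cebpd separate the tissues most, with Trib1 at 171 CPM per kb in knockout-labelled adipocytes and 12.4 in knockout-labelled liver.

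Genes with a pattern like that of Trib1 were sought by the root mean square difference of log2 CPM after each gene was centred on its own mean. Over the 8 adipocyte libraries and 8521 genes, the nearest were D3Ertd751e (0.0608), Gnl3 (0.0709), Atf6 (0.0725), Slc2a3 (0.0741) and Slc2a1 (0.0790), where Trib1 itself varied by 0.29 about its mean. Atf6 codes for a sensor of endoplasmic reticulum stress, and Slc2a1 and Slc2a3 for glucose transporters. Over all 16 libraries and 8742 genes the nearest were Sgce (0.21), Akr1b10 (0.23), Chml (0.24), Cpne8 (0.25) and Ahcyl2 (0.26), and the nearest member was Cebpd in place 191 (0.49). The libraries of a tissue share their preparation, so these are descriptions with no test.

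Lists of genes around the members were counted next, in the adipocytes, where the median log2 difference of all genes was -0.011. Library totals would move that median by -0.19. Of all genes tested 18.0% rose and 17.1% fell, and 9.37% and 28.3% did with library totals. Each list's counts are given beside these shares. The lists were chosen with earlier results of these data known, so a share above these gives no test of a list. The rises and falls among the genes listed as COP1 substrates (14.3% and 7.14%) and the MEK and ERK genes (9.52% each) did not exceed those of all genes with TMM scaling. The endothelial, fibroblast and mural markers fell in the same libraries, and their part in the lists was not tested. Rfwd2, Det1 and Dda1 belong to the first list and Trib3 to the list of ATF4 and CHOP targets. In the list of the CRL4-COP1 ligase and the COP9 signalosome, which removes the ubiquitin-like protein NEDD8 from cullins, 8 of 20 genes rose and none fell by edgeR or DESeq2, with a list median of 0.20, and 2 rose with library totals. Nedd8 averaged 69.5 ± 5.91 CPM in knockout-labelled and 50.05 ± 4.69 CPM in wild-type adipocytes (SD, n = 4 each), a log2 difference of 0.47. The signalosome subunits Cops3 (0.36) and Cops6 (0.37) rose as well. With library totals Cops3 (0.17) and Cops6 (0.18) no longer passed, and with the mice of 76 days alone Cops3, Cops6 and Nedd8 (0.51, adjusted p = 0.0532) did not.

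Of 14 genes listed as coding for COP1 substrates other than C/EBPs, 2 rose and 1 fell, with a median of 0.024. With library totals 1 rose and 4 fell. Acaca, acetyl-CoA carboxylase, a substrate of COP1 with TRIB3 in adipocytes, averaged 2046 ± 584 CPM in knockout-labelled and 1162 ± 125 CPM in wild-type adipocytes (log2 difference 0.82, edgeR adjusted p = 0.00911). Sort1 codes for the sorting receptor sortilin, which is counted in this list but is not an established COP1 substrate. It stood at 903 ± 54.2 CPM in knockout-labelled and 688 ± 75.3 CPM in wild-type adipocytes (0.39). The Sort1 call was lost with library totals (0.21), in the fit over all 16 libraries (0.41) and at 76 days (0.38). Ets1, a transcription factor abundant in endothelial cells and lymphocytes, fell by 1.63 on the log2 scale, beside the fall of the endothelial markers given above.

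Of the 6 genes tested in the C/EBP family list, none changed by edgeR, with 2 at an unadjusted p under 0.05 and 1 by DESeq2. The median was 0.029. Cebpz is counted there by its symbol, but it does not code for a C/EBP factor. With library totals Cebpd (-0.39) and Ddit3 (-0.56) fell. The gene DESeq2 called was Ddit3, which codes for CHOP, at 11.8 ± 1.19 CPM in knockout-labelled and 15.1 ± 2.46 CPM in wild-type adipocytes. The list of C/EBP target genes held 9 that rose (56.2%) and 1 that fell of 16, with a median of 0.57. With library totals 6 rose (37.5%) and 2 fell. Saa3, an acute phase gene, averaged 77.3 ± 9.35 CPM in knockout-labelled and 12.5 ± 3.58 CPM in wild-type adipocytes (log2 difference 2.63, edgeR adjusted p = 5.4e-05). The adipokine gene Retn averaged 2639 ± 270.2 CPM in knockout-labelled and 1094 ± 169 CPM in wild-type adipocytes (1.27). Hp, which codes for the haemoglobin-binding haptoglobin, averaged 8195 ± 208 CPM in knockout-labelled and 2831 ± 709 CPM in wild-type adipocytes (1.53). The gene that fell was Alb, a hepatocyte gene, by 1.88. The hepatocyte markers summed to 27.3 to 41.1 CPM in knockout-labelled and 47.3 to 133 CPM in wild-type adipocytes. Alb is itself one of these markers and made up most of the sum on average in both groups, so the sum is not separate from Alb. Of the 5 hepatocyte markers tested in adipocytes, 2 rose and 1, Alb, fell. Adipoq, the adiponectin gene, averaged 4731 ± 235 CPM in knockout-labelled and 3572 ± 593 CPM in wild-type adipocytes with no overlap. Its log2 difference of 0.41 ± 0.15 (SE) missed the threshold in edgeR (adjusted p = 0.0548) and passed it in DESeq2 (adjusted p = 0.00911).

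Of 16 ATF4 and CHOP targets, 8 rose and 1 fell, with a median of 0.30, and 6 rose and 3 fell with library totals. Chac1, which degrades glutathione, averaged 51.4 ± 11.6 CPM in knockout-labelled and 15.3 ± 3.27 CPM in wild-type adipocytes (log2 difference 1.75, edgeR adjusted p = 0.000345). Atf5, a stress-induced transcription factor, rose by 0.59, and Asns, asparagine synthetase, by 0.67. The Asns call was lost in the fit over all 16 libraries (0.69, adjusted p = 0.251). The gene that fell was Ddit4, an inhibitor of mTORC1, by 1.68 on the log2 scale.

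In the MEK and ERK cascade 2 of 21 genes rose and 2 fell, with a median of -0.069, and 2 rose and 7 fell with library totals. Dusp4, an ERK phosphatase, averaged 60.2 ± 14.8 CPM in knockout-labelled and 29.0 ± 7.12 CPM in wild-type adipocytes (log2 difference 1.05), and Spry2, a feedback inhibitor of the pathway, 86.2 ± 13.1 CPM in knockout-labelled and 48.2 ± 10.8 CPM in wild-type adipocytes (0.84). Spry1 fell by 1.11 and Spred2 by 0.80. Of 12 genes listed as AKT and insulin signalling partners, 4 rose (33.3%) and 1 fell, with a median of 0.24. With library totals none rose and 2 fell. Pparg, the master regulator of fat cells, rose by 0.40 and Pdk1 by 0.46. The symbol Pdk1 denotes pyruvate dehydrogenase kinase 1 in mouse, not the kinase that activates AKT, yet it is counted in this list.

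The Pparg call was lost with library totals (0.21), over all 16 libraries (0.42) and at 76 days (0.37), and the Pdk1 call with library totals (0.26) and at 76 days (0.53). Pparg, Insr, Foxo1, Etv4, Etv5, Cebpb, Cebpg and Ddit3 stand in more than 1 list, so the lists are not independent of each other. In liver, no gene of these 7 lists changed by edgeR, where each list held 1 to 5 genes with an unadjusted p under 0.05. DESeq2 called 1, Acacb, at 74.2 ± 7.68 CPM in knockout-labelled and 41.9 ± 11.2 CPM in wild-type liver, a log2 difference of 0.82 (edgeR adjusted p = 0.26, DESeq2 adjusted p = 0.00125). Several genes that rose in adipocytes gave values below 0 in liver, none past the threshold: Chac1 -0.61, Asns -1.89, Pparg -0.83 and Sort1 -0.51 on the log2 scale, with adjusted p of 0.50 to 0.512. Others that rose in adipocytes lay above 0 in liver, also without a call: Acaca 0.39, Nedd8 0.032, Rfwd2 0.031, Cops6 0.029 and Cops3 0.013. The Asns value rests on the liver of mouse WT-1136, which had 26.8 CPM against 3.23 to 5.20 CPM in the other wild-type livers, and without it the difference was -0.74. Without mouse WT-1135 that of Sort1 was -0.34. The other genes with the smallest p of their lists in liver, Irs2, Orm1, Rbx1, Cul4b, Cebpe, Cebpg, Spred1 and Mapk3, had adjusted p of 0.512 to 0.768.

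**Figure D5:**
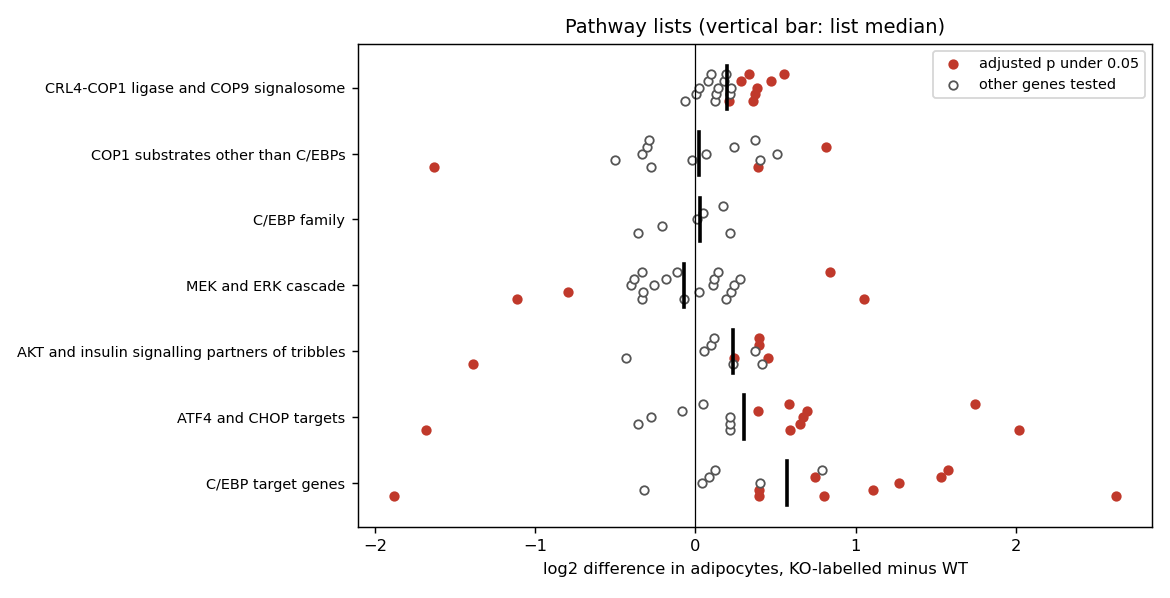
Log2 difference in adipocytes, knockout-labelled minus wild-type (x axis), of each tested gene in 7 lists around the members, filled red where the edgeR adjusted p was under 0.05 and with a vertical bar at each list's median. The medians run from -0.069 for the MEK and ERK cascade to 0.57 for the C/EBP target genes.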

How the data were processed

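Poly-A RNA was sequenced from adipocytes and liver of 8 mice, per the labels' protocols. Each deposited file gives 1 library as unnormalised counts by gene symbol. The submitters' processing notes name mm10 as the build and bcl2fastq 2.17, STAR 2.5.2b and featureCounts 1.5.0 as tools. Details of gene annotation, strand and multiply mapped reads were not given in the sources used here.

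Groups were set by tissue and genotype label, with 4 libraries in each. Counts were tested with edgeR 4.0.16 (R 4.3.3) by the quasi-likelihood test, two-sided, with TMM scaling and the filterByExpr filter, within each tissue for genotype, within wild-type mice for tissue and over 16 libraries for the interaction. Adjusted p-values cover all genes tested, with a threshold of 0.05. The scripts were tested on simulated data. TMM factors were 0.898 to 0.984 in knockout-labelled and 1.02 to 1.16 in wild-type adipocytes, and 0.970 to 1.03 in liver. The labels do not say more about how the mice of a group were related, so p-values measure the spread between these libraries.

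Library totals were 28560887 to 53716669 counts. Of the counts from 1 to 20, 77.9% were even, so low counts are not independent molecules and a halved-count alternative was fitted. No library was a duplicate: the closest pair within a group had a chi-square of 32.1 for each degree of freedom. By the labels, a shared number marks the adipocytes and liver of 1 mouse. Across genes, the deviations of such a pair had a Pearson r of -0.0592 to 0.0916. Exon lengths and coordinates came from GENCODE M21. Alternatives were library totals, RLE scaling, DESeq2 1.42.0, no filter, halved counts, all libraries in 1 fit, age as a covariate, the mice of 76 days, knockout-labelled mice for tissue, the mouse as a block, and leaving out each mouse.

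The members and gene lists were chosen with earlier results of these data known. One list gene, Adgre1, was not used here. All members are given in every comparison. From each list, up to 3 other genes with the smallest p in adipocytes and up to 2 in liver are named, plus Adipoq. Likeness to Trib1 was computed with a prior count of 2 over genes averaging 10 CPM or more. Ddit4, Alb, Spred2, Insr and Clec4f are named beyond these, after their values were seen. One further list gene is counted in its list and not reported here by name.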

Additional observations from a re-analysis of the deposited data

Results flagged for a closer look

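The genotype difference differed between the tissues for 15 of the 39 genes that are members or were named from the lists by their p, by edgeR's interaction test. Genes named for a small p in 1 tissue, from the same libraries, were more likely to pass this test by that choice, so their count is not set against the share over all genes. On the log2 scale the adipocyte difference minus the liver difference was -2.07 for Trib2 and 0.55 for Rfwd2 among the members. Of the ATF4 and CHOP targets it was 2.39 for Chac1, 2.58 for Asns and 0.65 for Atf5. The Asns value leans on the liver of mouse WT-1136, at 26.8 CPM, and was 1.43 without that mouse (edgeR adjusted p = 0.0185). Of the C/EBP targets it was 2.55 for Saa3, 1.65 for Hp, 1.27 for Pparg and 0.86 for Orm1. It was 0.47 for Nedd8, 0.37 for Cops3 and 0.93 for Sort1, and negative for Ets1 at -1.84 and Spry1 at -1.12. Retn was at 3.12, yet it had 0 to 0.24 CPM in knockout-labelled and 0.043 to 1.10 CPM in wild-type liver, too little to be tested in liver alone. Its value was 0.72 without mouse WT-1138 and 5.26 without mouse KO-1151. When each mouse was left out, no other value here moved by over 1.5 times, but some no longer passed. Asns lost its call without KO-1139 (2.54) or KO-1151 (2.29), and Atf5 without WT-1138, KO-1139 or KO-1151 (0.52 to 0.58). Orm1 lost it without WT-1138 or any knockout-labelled mouse but KO-1137 (0.77 to 0.90). Nedd8 lost it without WT-1138, KO-1139 or KO-1152 (0.41 to 0.46), Cops3 without WT-1135, KO-1139, KO-1151 or KO-1152 (0.30 to 0.39) and Spry1 without KO-1152 (-1.06).

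Single libraries stood apart from the other 3 of their group in 9 cases of 108 groups examined, where chance gives about 1 in 20. The measure is the gap to the nearest library divided by the range of the group. Among the members, Dda1 was low in adipocytes of mouse KO-1152 (0.872), at 52.7 CPM, and Map2k1 was low in liver of the same mouse (0.838), at 38.9 CPM. Both genes lack a genotype call with or without that mouse. In adipocytes, mouse KO-1137 was lowest for Cebpg (0.858) and Cops3 (0.864), and mouse WT-1135 was lowest for Cops3 (0.833), Retn (0.925) and Sort1 (0.856). In liver, mouse KO-1139 was lowest for Sort1 (0.936) and mouse WT-1136 was highest for Asns (0.916), at 26.8 CPM. Mouse WT-1135 also had the highest summed endothelial markers of the adipocyte libraries, and the part of these markers in its values was not tested.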

How the results depend on the processing

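The rise of Rfwd2 and the fall of Trib2 in adipocytes passed under every alternative run, with Rfwd2 at 0.48 to 0.60 and Trib2 at -1.89 to -1.23 when each mouse was left out. With library totals Rfwd2 lay below that range, at 0.36, and Trib2 was at -1.87. The rise of Trib3 failed under the alternatives given with it. Members higher in adipocytes numbered 1 with library totals, over all 16 libraries and at 76 days, and members lower numbered 2 with library totals. All genes higher numbered 1293 with library totals and 832 at 76 days, and genes lower 3899 and 898, against 2487 higher and 2362 lower as reported. In liver 54 genes were higher and 50 lower by DESeq2, 0 higher at 76 days, and 1 lower with no filter, over all 16 libraries or with age as a covariate. Leaving out each mouse gave 1 to 3 higher and 0 to 1 lower. Between tissues, library totals gave 8 members higher, and 3064 genes lower against 5337. For the interaction, members higher numbered 0 with library totals and 2 with RLE scaling, DESeq2 or age by tissue, and 1 to 2 when each mouse was left out. All genes higher numbered 683 and lower 2242 with library totals, against 1544 and 1301, and 900 to 1569 and 749 to 1600 when each mouse was left out. With the mouse as a block, which pairs the tissues of a mouse, the interaction was -1.96 for Trib2 (adjusted p = 0.0148), 0.55 for Rfwd2 (0.0273) and 1.23 for Trib3 (0.0802), and no member's call changed. The genotype contrast within a tissue shares no mouse between groups, so it has no pairing.

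Signs turned for values with no call as reported, apart from Trib2 between tissues. In adipocytes library totals gave -0.12 for Det1, -0.015 for Dda1, -0.18 for Cebpa, -0.17 for Map2k1, -0.15 for Cebpg and -0.021 for Cebpz, and 76 days gave -0.0068 for Det1 and -0.024 for Cebpa. Leaving out each mouse gave -0.052 to 0.12 for Cebpa and -0.015 to 0.064 for Map2k1. In liver 76 days gave -0.044 for Rfwd2, 0.062 for Cebpd and 0.0025 for Map2k1, no filter gave -0.00031 for Dda1, age as a covariate gave -0.027 for Cebpb and 0.0015 for Map2k1, and library totals gave 0.0055 for Map2k1. Leaving out each mouse there gave -0.11 to 0.086 for Cebpa, -0.10 to 0.30 for Cebpb, -0.29 to 0.071 for Cebpd, -0.034 to 0.051 for Dda1, -0.040 to 0.031 for Map2k1, -0.026 to 0.078 for Rfwd2 and -0.61 to 0.056 for Irs2. Between tissues knockout-labelled mice gave -0.28 for Trib2, called higher in wild-type mice, and 0.31 for Det1, and library totals 0.54 for Det1 and 0.45 for Map2k1. In the interaction library totals gave -0.041 for Trib1, -0.043 for Dda1, -0.16 for Cebpa, -0.049 for Cebpb and -0.18 for Map2k1, and leaving out each mouse gave -0.10 to 0.17 for Cebpa, -0.096 to 0.39 for Cebpb and -0.24 to 0.013 for Cebpd. The cause was not tested.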
